A study of Mus musculus with 6 samples.

Results

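The genes described here encode 7 subunits of the GABA-A receptor: the alpha subunit genes Gabra2, Gabra3, Gabra4 and Gabra5, the beta subunit genes Gabrb1 and Gabrb2, and the gamma subunit gene Gabrg3. They were taken from a fixed list of symbols matched to the Ensembl identifiers of the deposited table, and all 7 were found among its 47062 genes. Total RNA was sequenced from the striatum of newborn mice (postnatal day 0), dissected with the subventricular zone, on a mixed C57BL/6J, 129S6 and CD1 background. The 3 mutant libraries came from Drd2-Cre;Sp9Flox/Flox animals and the 3 control libraries from Sp9Flox/Flox littermates, so floxed Sp9 alleles were present in every animal and Drd2-Cre in the mutants alone. The driver Drd2-Cre follows the gene of the dopamine D2 receptor, which marks striatopallidal (indirect pathway) projection neurons. Since no group carried Drd2-Cre without floxed Sp9, an effect of the transgene itself and one of Sp9 loss cannot be told apart. Whether a library is 1 animal is not stated in the labels, and the p-values describe library-to-library spread, which may be technical.

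GABA-A receptors are chloride channels opened by the transmitter GABA, and each channel is built from several subunits around a central pore. Most brain receptors combine alpha and beta subunits, which form the GABA binding site between them, with a gamma or a delta subunit, and the alpha subunit sets much of the sensitivity to GABA and to benzodiazepines. Projection neurons of the striatum are themselves GABAergic, so they both release GABA and receive it from each other and from local interneurons. In immature neurons the chloride gradient often makes GABA depolarizing.

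The genes lie in clusters with other subunit genes. In GENCODE M21 (GRCm38), Gabra2 (chromosome 5, 70957597 to 71095849, minus strand), Gabra4 (71569749 to 71658308, minus strand) and Gabrb1 (71658113 to 72149037, plus strand) share chromosome 5. Gabrg3 (56716465 to 57387188, minus strand) and Gabra5 (57407672 to 57510059, minus strand) lie on chromosome 7, Gabrb2 (42419757 to 42629028, plus strand) on chromosome 11 and Gabra3 (72432681 to 72656848, minus strand) on the X chromosome. Gabra4 and Gabrb1 are read in opposite directions from starts that overlap: the annotated start of Gabrb1 lies 195 bases inside Gabra4, and the genes share 46 exon bases, 0.756% of those of Gabra4 and 0.332% of those of Gabrb1. Gabra5 shares 148 exon bases, 4.98% of its own, with the antisense gene Gm9962. Whether strand was used in counting is not given in the sources used here, so fragments in shared bases may have been counted for either gene.

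Promoter windows are shown for Gabra4 and Gabrg3, the members whose mutant and control libraries did not overlap, and for Gabrb1 (the first of its 2 windows), the neighbour that starts inside Gabra4. Each window runs from 250 bases before to 50 bases after a RefSeq start (GRCm38.p6), written 5′ to 3′ on the gene's own strand. Capitals mark the GC box (GGGCGG or its reverse complement), the element that zinc finger proteins of the Sp family are known to bind.
Gabra4, chr5:71658259-71658558, minus strand: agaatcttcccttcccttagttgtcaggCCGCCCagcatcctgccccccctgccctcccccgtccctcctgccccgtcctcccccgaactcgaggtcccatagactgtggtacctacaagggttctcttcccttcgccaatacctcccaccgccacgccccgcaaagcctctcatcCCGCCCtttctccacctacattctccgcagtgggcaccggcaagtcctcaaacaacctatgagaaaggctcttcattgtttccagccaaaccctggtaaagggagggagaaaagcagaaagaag
Gabrb1, chr5:71657671-71657970, plus strand: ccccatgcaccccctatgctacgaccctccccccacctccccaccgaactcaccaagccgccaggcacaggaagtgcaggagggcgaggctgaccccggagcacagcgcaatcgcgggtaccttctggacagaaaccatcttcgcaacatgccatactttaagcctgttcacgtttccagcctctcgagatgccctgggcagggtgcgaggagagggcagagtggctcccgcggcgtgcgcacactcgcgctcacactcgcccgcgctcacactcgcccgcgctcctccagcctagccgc
Gabrg3, chr7:57387166-57387465, minus strand: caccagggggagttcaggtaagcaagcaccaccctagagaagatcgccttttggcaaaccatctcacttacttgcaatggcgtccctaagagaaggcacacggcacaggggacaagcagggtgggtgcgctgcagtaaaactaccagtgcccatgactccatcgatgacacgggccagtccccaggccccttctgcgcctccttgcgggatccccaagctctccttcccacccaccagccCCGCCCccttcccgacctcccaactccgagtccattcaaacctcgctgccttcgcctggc
The Gabra4 window held 2 GC boxes, the Gabrg3 window held 1 and the Gabrb1 window held 0. Over the members, Gabra2 also held 2 and Gabrb2 held 1 in 1 of its 3 windows, while the windows of Gabra3 and Gabra5 held none, so that 4 of 11 windows had the motif. Of all 32851 RefSeq windows of this length, 35.7% held a GC box on either strand. A match describes the letters of the window and is not a binding site.

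Libraries held an estimated 16236644 to 19458346 fragments in genes. Expression is given as FPKM (fragments counted per kilobase of transcript and scaled to library size), and tests covered the 16666 genes whose mean FPKM reached 0.5. Sp9, the targeted gene, had an FPKM of 8.37, 7.93 and 9.67 in mutant libraries 1 to 3, against 20.1, 19 and 17.3 in control libraries 1 to 3, and Adora2a, an adenosine receptor gene of the indirect pathway neurons, had 3.95, 5.36 and 3.02 in mutants, against 47.6, 41.1 and 44.1 in controls. Summed FPKM of 6 markers of striatal projection neurons was 1174.3 to 1260.8 in mutants and 1305.0 to 1374.5 in controls, while 7 cortical glutamatergic markers summed to 8.72 to 58.6 in mutants and 8.16 to 24.0 in controls, highest in mutant 3. Control 3 was the only male library by Xist and Y-linked genes, so sex was not balanced between the groups for any member. Gabra3 is X-linked, and its log2 fold change was -0.14 with control 3 and -0.18 without it. The part of sex in the members' values was not tested.

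All 7 members were expressed in every library, so none entered the test through 1 group alone. Averaged over the 6 libraries, Gabra5 was the most abundant (56.4 ± 6.93 FPKM, SD), above 87.7% of tested genes. Gabrb2 (27.8 ± 2.48), Gabra2 (19 ± 2.14), Gabra4 (11.7 ± 1.89), Gabrg3 (9.89 ± 2.09), Gabra3 (7.46 ± 0.857) and Gabrb1 (4.17 ± 0.708, above 33.4% of tested genes) followed. Ranges over libraries overlapped between Gabra4 and Gabrg3 and between Gabrg3 and Gabra3. The other neighbours in this order were apart in all 6 libraries. Together the members held 47.4 to 48.7% of the summed FPKM of all 19 GABA-A subunit genes in mutant libraries, against 47.0 to 48.8% in control libraries.

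**Figure D1:**
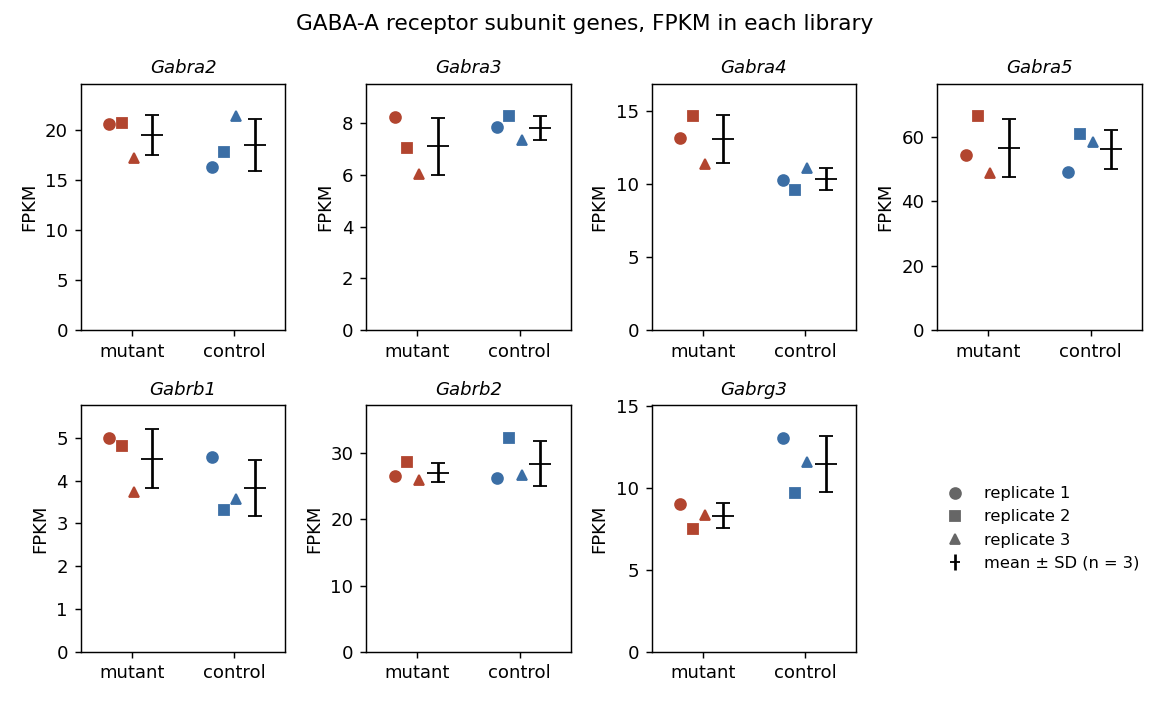
FPKM of each subunit gene (vertical axis, from 0) in 3 mutant libraries (left) and 3 control libraries (right), with marker shapes for replicate numbers and the mean ± SD beside them. The groups are apart for Gabra4, with mutants at 11.4 to 14.7 and controls at 9.60 to 11.1, and for Gabrg3, with mutants at 7.52 to 9.04 and controls at 9.72 to 13.1.

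The question for these genes is whether their level in the newborn striatum differs between mutants and controls. None of the 7 members passed an adjusted p of 0.05 over all genes (limma, Benjamini-Hochberg), against 0.0600% of tested genes, and none met the study's own rule of a 2-fold change with an unadjusted p of at most 0.05, which 0.342% of tested genes met. At an unadjusted p under 0.05, 1 member, Gabra4, was higher in mutants and 1, Gabrg3, was lower, against 2.65% of tested genes that were higher and 2.99% that were lower (5.65% in all). Mutant and control libraries of Gabra4 and of Gabrg3 were also apart, as they were for 5.33% of tested genes with mutants higher and 6.05% with mutants lower (11.4% in all). The median log2 fold change of the members was 0.01, from -0.44 to 0.32, and that of all tested genes was -0.00. On the count columns described further on, the members' median had the other sign, -0.04. In bulk tissue, fewer cells of a type and less RNA per cell cannot be told apart.

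Among the alpha subunits, Gabra4 showed the largest difference. Its product, together with the delta subunit, forms receptors outside synapses in thalamus and adult striatum. Gabra4 had an FPKM of 13.2, 14.7 and 11.4 in mutant libraries 1 to 3, against 10.3, 9.60 and 11.1 in control libraries 1 to 3. Every mutant library was above every control library, with a gap of 0.329 FPKM between mutant 3 and control 3. The means were 13.1 ± 1.61 in mutants and 10.3 ± 0.758 in controls (SD, n = 3 each). The fold was 1.25 (log2 fold change 0.32 ± 0.11 SE, 95% interval 0.06 to 0.59), with an unadjusted p of 0.0239 and an adjusted p of 0.826 (limma). An exact permutation test (two-sided) gave p = 0.1, the lowest that 3 against 3 libraries can reach.

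Gabra5, whose product mediates tonic GABA currents and is prominent in the developing forebrain, had an FPKM of 54.5, 66.7 and 48.9 in mutants, against 49.3, 60.9 and 58.4 in controls. The highest and the lowest value were both from mutants. Its log2 fold change was 0.01 (95% interval -0.33 to 0.34), so changes of up to about 1.27-fold either way lie inside the interval. Gabra2, which encodes a synaptic alpha subunit abundant in striatum, had 20.6, 20.7 and 17.2 in mutants, against 16.3, 17.8 and 21.4 in controls. The groups overlapped, and the log2 fold change was 0.08 (95% interval -0.22 to 0.38). Gabra3, an alpha subunit of immature neurons in the forebrain, had 8.25, 7.04 and 6.03 in mutants, against 7.84, 8.29 and 7.34 in controls. Mutants 2 and 3 were below every control and mutant 1 was above 2 of them (log2 fold change -0.14, 95% interval -0.44 to 0.16). Adjusted p-values for Gabra5, Gabra2 and Gabra3 were 1, 0.952 and 0.891 (limma).

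**Figure D2:**
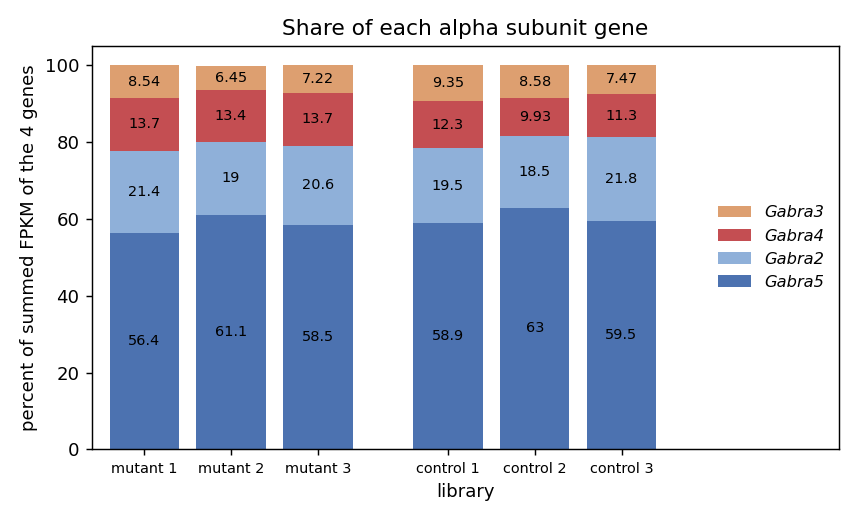
Share of each alpha subunit gene in the summed FPKM of Gabra2, Gabra3, Gabra4 and Gabra5 (vertical axis, percent) in each library, mutants left of controls, with the share printed in each segment. Gabra4 holds 13.4 to 13.7% in mutants and 9.93 to 12.3% in controls, and Gabra5 is the largest segment in every library.

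Set against each other, the 4 alpha genes kept 1 order of abundance in all mutants and all controls, from Gabra5 through Gabra2 and Gabra4 to Gabra3. Gabra4 made up 13.6 ± 0.141% of their summed FPKM in mutants and 11.2 ± 1.18% in controls (SD, n = 3 each), and its groups did not overlap. That share uses the same Gabra4 values as above and is not a separate result. Gabra5 held 58.7 ± 2.35% in mutants and 60.5 ± 2.25% in controls, Gabra2 20.3 ± 1.21% in mutants and 19.9 ± 1.69% in controls, and Gabra3 7.4 ± 1.06% in mutants and 8.47 ± 0.944% in controls, each with overlapping groups. The summed alpha FPKM was 96.4 ± 12.8 in mutants and 92.9 ± 7.91 in controls.

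Beta subunits are needed for receptors to assemble and to reach the cell surface. Gabrb2 had an FPKM of 26.6, 28.7 and 26.0 in mutants, against 26.2, 32.4 and 26.7 in controls. Apart from control 2, which was the highest, the libraries lay close together (log2 fold change -0.06, 95% interval -0.30 to 0.17, adjusted p = 0.949, limma). Gabrb1 had 5.01, 4.80 and 3.74 in mutants, against 4.56, 3.32 and 3.58 in controls. Mutants 1 and 2 were above every control and mutant 3 was below control 1. Its log2 fold change was 0.22 (95% interval -0.17 to 0.61, adjusted p = 0.888, limma). Gabra4, which starts beside it, was also highest in mutants 1 and 2. Gabrb1 held 14.2 ± 1.66% of the summed FPKM of the pair in mutants and 12 ± 2.77% in controls (SD, n = 3 each), with overlapping groups.

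Gabrg3, which encodes a gamma subunit found in a small share of brain receptors, was the member with the largest difference. It had an FPKM of 9.04, 7.52 and 8.36 in mutants, against 13.1, 9.72 and 11.6 in controls. Every mutant library was below every control library, with a gap of 0.680 FPKM between mutant 1 and control 2. The means were 8.31 ± 0.761 in mutants and 11.5 ± 1.67 in controls (SD, n = 3 each). The mutant level was 0.739 of the control level (log2 fold change -0.44 ± 0.13 SE, 95% interval -0.75 to -0.13), with an unadjusted p of 0.0142 and an adjusted p of 0.781 (limma). An exact permutation test gave p = 0.1 (two-sided).

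The 3 genes whose centred log2 levels were closest to those of Gabrg3 over the 6 libraries were Galnt17 (root mean square difference 0.0442), Gm9752 (0.0610) and Jade2 (0.0624). Galnt17, a gene of the family of glycosyltransferases that start O-linked sugar chains, had an FPKM of 18.0, 14.7 and 17.3 in mutants, against 25.0, 19.1 and 21.6 in controls. Like Gabrg3, it was highest in control 1 and lowest in mutant 2. It was picked by closeness over these same libraries, so the shared extremes are not a separate result. With 6 libraries, this likeness is a description.

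Each library also has a count column in the table, which follows fragment numbers without division by transcript length and is termed scaled counts. On scaled counts Gabra4 had 815.3, 913.6 and 707.7 in mutants, against 644.7, 605.0 and 692.1 in controls (log2 fold change 0.32, unadjusted p = 0.0103, adjusted p = 0.532, limma). Gabrg3 had 1007.7, 833.1 and 997.0 in mutants, against 1384.1, 1013.8 and 1283.7 in controls (log2 fold change -0.37, unadjusted p = 0.0149, adjusted p = 0.607, limma). The groups of both genes were apart on this scale too, though mutant 1 and control 2 of Gabrg3 nearly met. The 2 groups were apart for 12% of the genes tested on scaled counts. Gabrb1 had 1058.5, 1021.2 and 794.1 in mutants, against 861.7, 656.6 and 759.5 in controls, with overlapping groups (log2 fold change 0.33, unadjusted p = 0.0313, adjusted p = 0.698, limma). No member passed an adjusted p of 0.05 on scaled counts, where 0.143% of genes did, and 3 of 7 members were at an unadjusted p under 0.05, against 6.42% of genes.

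**Figure D3:**
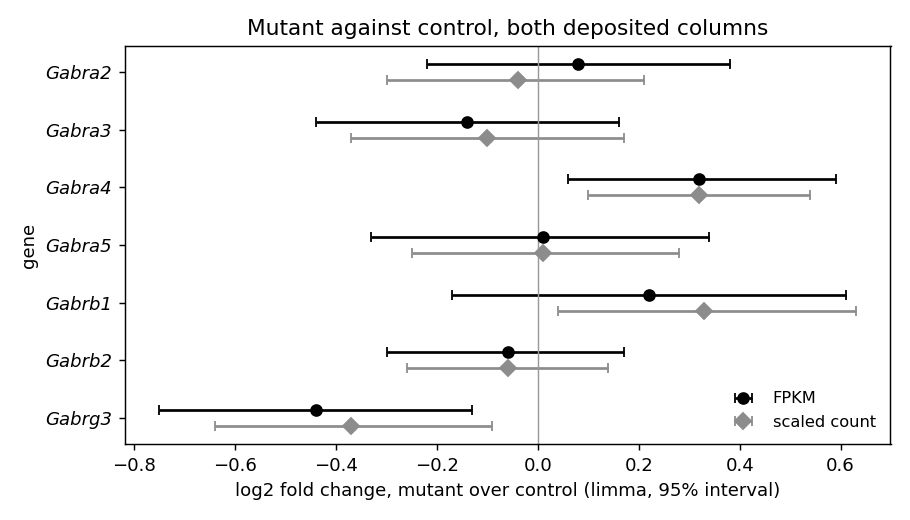
Log2 fold change of mutant over control (horizontal axis) with its 95% interval from limma, for each gene on FPKM (black circles) and on scaled counts (grey diamonds). The intervals of Gabra4 and Gabrg3 leave out 0 on both columns, that of Gabrb1 on scaled counts alone, and the estimates for Gabra2 are 0.08 on FPKM and -0.04 on scaled counts.

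Because FPKM divides by transcript length, scaled counts per FPKM unit depend on the length that was used for a gene in that library. Other steps, such as the handling of multi-mapped fragments, which is not given, may also move this ratio. Which of these moved it was not tested. For Gabra2 this ratio was 71.3, 75.4 and 76.2 in mutants, against 77.1, 85.3 and 80.8 in controls, a difference of -8.28% in mutants, and the groups did not overlap. For Gabrg3 it was 111.8, 110.9 and 118.9 in mutants, against 106.1, 104.1 and 110.1 in controls, 6.65% higher in mutants and again without overlap. Gabra5 also had groups that did not overlap, but the means differed by 0.632%. Across genes 11.8% had groups apart in this ratio, and for each of these 3 members an exact permutation test gave p = 0.1 (two-sided). For Gabrb1 the ratio was 212.2, 213.1 and 211.8 in mutants, against 189.1, 197.3 and 212.0 in controls, with mutant 3 just under control 3. Gabra4 (-0.88%), Gabrb2 (0.201%) and Gabra3 (3.36%) had overlapping groups too. GENCODE M21 lists coding transcripts of 1724 to 9767 bases for Gabrg3 and of 799 to 13737 bases for Gabrb1. For Gabra2 it lists 1 coding transcript, of 5852 bases, among 6 transcripts. The coding ranges are 440 to 4108 bases for Gabra4, 1790 to 3662 for Gabra3, 2224 to 2671 for Gabra5 and 1539 to 3989 for Gabrb2. How fragments were divided among transcripts was not tested.

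**Figure D4:**
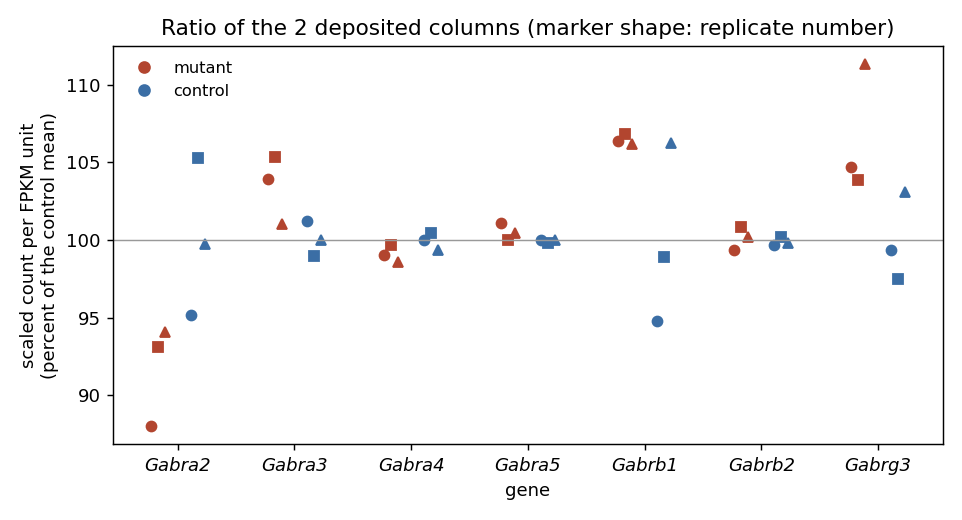
Scaled counts per FPKM unit (vertical axis, percent of the control mean) for each gene, with mutant libraries left of control libraries and marker shapes for replicate numbers. Mutants lie below controls for Gabra2 and above them for Gabrg3, while Gabra4, Gabra5 and Gabrb2 stay near 100.

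The other GABA-A subunit genes give the setting for these values. Of 12 such genes, 5 were tested, and the other 7 (Gabra6, Gabre, Gabrp, Gabrq, Gabrr1, Gabrr2 and Gabrr3) had a mean FPKM under 0.5. None of the 5 had an adjusted p or an unadjusted p under 0.05 (limma) on FPKM or on scaled counts, and each had overlapping groups. Gabrd, the delta subunit gene, had a log2 fold change of -0.03 (95% interval -0.47 to 0.40). Gabrg1 had 3.27, 5.59 and 3.18 in mutants, against 2.83, 3.28 and 2.1 in controls (log2 fold change 0.46, 95% interval -0.16 to 1.07). Gabrg1 lies in the same cluster on chromosome 5 as Gabra2, Gabra4 and Gabrb1.

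Genes that make, move and anchor GABA signalling were read from a list of 30, of which 29 were tested. None passed an adjusted p of 0.05 (limma) on FPKM or on scaled counts. At an unadjusted p under 0.05, 1 of the 29 was higher and 3 were lower, where 2.65% of all tested genes were higher and 2.99% lower. The median log2 fold change of the 29 was -0.02. The gene that was higher was Aldh5a1, an enzyme of GABA breakdown (16.7, 16.5 and 15.7 FPKM in mutants, against 15.2, 14.2 and 14.8 in controls). The genes that were lower were Kctd8, an auxiliary subunit of GABA-B receptors, and Plcl1 and Plcl2, whose products bind GABA-A receptor partners and take part in receptor trafficking. Kctd8 had 17.9, 14.3 and 18.5 in mutants, against 23.5, 24.4 and 24.9 in controls (log2 fold change -0.52 ± 0.10 SE, adjusted p = 0.566, limma). Plcl2 had 28.7, 28.1 and 27.5 in mutants, against 31.9, 31.8 and 33.9 in controls (log2 fold change -0.21), and Plcl1 7.03, 6.76 and 8.69 in mutants, against 9.25, 9.27 and 9.55 in controls (log2 fold change -0.31). In FPKM, mutants and controls were apart for each of the 4 and for Slc12a2, which makes 5 of the 29, beside 11.4% of all tested genes. On scaled counts the groups of Slc12a2 overlapped.

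The machinery of GABA synthesis and release showed small differences. Gad1 and Gad2, which make GABA, had log2 fold changes of 0.11 and 0.08, and Slc32a1, which loads it into vesicles, of -0.02. Gphn, the scaffold that anchors receptors at inhibitory synapses, had -0.05. The chloride importer gene Slc12a2 had 14.1, 15.9 and 14.2 FPKM in mutants, against 13.4, 13 and 14 in controls (log2 fold change 0.12), and the exporter gene Slc12a5 had 40.4, 42.7 and 34.9 in mutants, against 41.7, 35.3 and 38.0 in controls (log2 fold change 0.04). Unadjusted p-values of these 6 genes were between 0.119 and 0.819 (limma).

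Marker lists of projection neurons are given beside Gabra4 and Gabrg3. Of 7 indirect pathway markers, 2 (Adora2a and Grik3) passed an adjusted p of 0.05 (limma), both lower in mutants, against 0.0600% of tested genes called in either direction. All 7 had lower estimates, and their summed FPKM was 82.4 to 109.9 in mutants and 214.6 to 240.3 in controls. Among them Drd2, the gene that the driver follows, had 45.1, 45.9 and 42.1 FPKM in mutants, against 48.5, 42 and 44.5 in controls, with overlapping groups (log2 fold change -0.02, adjusted p = 0.986, limma). Of 7 direct pathway markers and 6 markers of both kinds of projection neuron, none passed (limma). An unadjusted p under 0.05 was found for 4 of the direct markers and 2 of the others, beside 5.65% of tested genes. The direct markers had 4 higher and 3 lower estimates, and their summed FPKM overlapped (451.9 to 499.2 in mutants and 439.2 to 471.1 in controls). No marker of either list was at 0. The mean log2(FPKM + 0.5) of the direct list was 5.46, 5.52 and 5.37 in mutants, against 5.20, 5.13 and 5.31 in controls, with the groups apart, unlike the summed FPKM. On that mean, the direct list was highest in mutant 2 and lowest in control 2, as Gabra4 was. Drd1, the D1 receptor gene in that list, had 37.7, 42.7 and 37.6 FPKM in mutants, against 27.0, 18.8 and 25.3 in controls (log2 fold change 0.73, adjusted p = 0.566, limma). Isl1, a transcription factor gene of direct pathway neurons, was on the other side, with 55.9, 53.3 and 54.9 in mutants, against 63.1, 61.6 and 68.4 in controls (log2 fold change -0.23, adjusted p = 0.654, limma). Tac1 and Ebf1 had log2 fold changes of -0.02 and -0.04, and Sfxn1, Pdyn and Chrm4 of 0.44, 0.50 and 0.27. The part of these cells in the values of Gabra4 and Gabrg3 was not tested. Cortical markers, with higher estimates in mutants for 6 of 6 tested, were highest in mutant 3 (a summed FPKM of 58.6). In mutant 2 they summed to 8.72, near control 3 (8.16). Medial eminence interneuron markers, with higher estimates for 8 of 8, summed to 410.7 to 496.2 in mutants and 319.1 to 433.6 in controls, lowest in control 1. Estimates were higher for 8322 of all 16666 tested genes. No cortical or medial eminence marker passed an adjusted p of 0.05 (limma). At an unadjusted p under 0.05 (limma) there were 0 cortical and 2 medial eminence markers, beside 5.65% of tested genes. The part of either list in the members' values was not tested. Mutant 3 had the lowest Gabra4 of the mutants and control 1 the highest Gabrg3 of all libraries. Without mutant 3 the log2 fold changes were 0.41 for Gabra4 and -0.44 for Gabrg3, and without control 1 they were 0.32 for Gabra4 and -0.34 for Gabrg3.

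**Figure D5:**
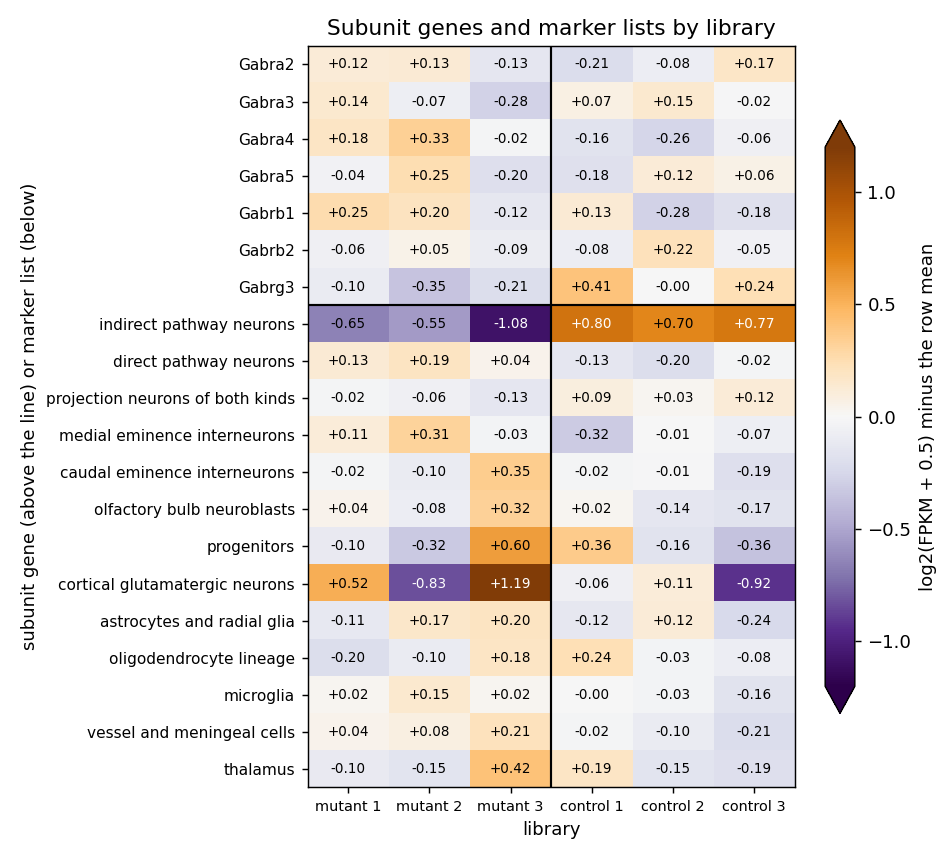
Level of each subunit gene (above the line) and mean level of each marker list (below it) in each library, as log2(FPKM + 0.5) minus the row mean, mutants left of controls. Gabra4 and the means of the direct pathway, microglia, and vessel and meningeal lists are higher in each mutant than in each control. The summed FPKM of each of these lists overlaps between the groups. For microglia the closest uncentred means are 1.92 in mutants 1 and 3 and 1.90 in control 1. The vessel and meningeal list includes Dcn, which was under the test filter (0.344 to 0.519 FPKM in mutants and 0.0378 to 0.171 in controls). The indirect pathway list is lower by more than 1 log2 unit in each mutant than in each control. The cortical list is highest in mutant 3 (1.19).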

How the data were processed

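Per the file headers, the authors deposited FPKM and a count for every gene in each of the 6 libraries. The submitters' processing notes name TopHat, Cufflinks 2.1.1 and GRCm38.p4. The sources used here do not give the strand setting, the annotation release or the handling of multi-mapped fragments. The deposited count columns are not whole and were treated as a signal, called scaled counts: 98.7 to 98.9% of low values (up to 20 steps) lay within 0.1 of a whole multiple of 1 step per library. No count test was run.

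Symbols came from GENCODE M21 and matched 46483 of 47062 identifiers. Mutant and control were compared with limma 3.58.1 (R 4.3.3, variance trend, no covariate) on log2(FPKM + 0.5), over the 16666 genes whose mean FPKM reached 0.5. Two-sided p-values were adjusted (Benjamini-Hochberg) over all of these, and calls needed an adjusted p under 0.05. The pseudocount makes fold changes of low genes smaller. Scaled counts per FPKM unit were divided by 1 median factor per library. Alternatives tried were other pseudocounts (0.1 and 1), other filters (none, or a mean FPKM reaching 1), quantile and median-ratio scaling, log2(scaled count + 1) where the mean reached 10, robust limma, the replicate number as a block and each library left out. The fit was tested on simulated data.

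Named genes were the 7 members, the other subunit genes, pathway genes fixed by role, pathway genes with an unadjusted p under 0.05, context genes and the 3 genes closest to the member with the largest fold change. The members, lists and tests were chosen with earlier results of these data known. Some genes that this rule names are not reported here.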

Additional observations from a re-analysis of the deposited data

How the results depend on the processing

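The count of members past an adjusted p of 0.05 was 0 in the fit as reported and in all 15 alternatives (limma), while members at an unadjusted p under 0.05 numbered 2 as reported, 3 on scaled counts, 1 with the replicate block and 0 to 2 with 1 library left out. Gabra4 stayed higher and Gabrg3 lower in mutants in all 15, with log2 fold changes of 0.24 (without mutant replicate 2) to 0.41 and of -0.55 (without control replicate 2) to -0.34 and adjusted p-values from 0.532 and 0.528 up to 1. The unadjusted p of Gabra4 was 0.0702 and 0.0686 when mutant replicate 1 or 2 was left out and 0.0639 and 0.0781 when control replicate 1 or 2 was, and that of Gabrg3 0.0514 without mutant replicate 2. Gabra3 stayed lower and Gabrb1 higher in all 15. The labels do not say that a replicate number marks a shared litter, so the numbers were not taken to pair the libraries. Same-numbered libraries had correlations of 0.002, 0.037 and 0.043 in their deviations from group means. Those of differently numbered mutant and control libraries ran from -0.068 to 0.033. With the replicate block the unadjusted p was 0.0699 for Gabra4 and 0.00353 for Gabrg3. Over all genes, 10 passed as reported, 23 on scaled counts, 5 with the replicate block and 12 to 21 with 1 library left out (limma).

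Signs turned for genes with differences near 0, and the cause was not tested. On scaled counts Gabra2 had -0.04. With 1 library left out the values ran from -0.00 to 0.18 for Gabra2, from -0.12 to 0.11 for Gabra5, from -0.12 to 0.03 for Gabrb2, from -0.13 to 0.14 for Gabrd, from -0.06 to 0.05 for Slc32a1 and from -0.02 to 0.12 for Slc12a5. Of the 18 pathway genes not named, 11 changed sign in some fit and 0 passed the threshold in any (limma). With 3 libraries a group, the 95% intervals of the members' log2 fold changes ran from that of Gabrb2 (-0.30 to 0.17), the narrowest, to that of Gabrb1 (-0.17 to 0.61), the widest.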
